A study of Danio rerio with 9 samples.

Results

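Complexes I, II and III pass electrons from NADH and succinate through ubiquinone to cytochrome c in the inner mitochondrial membrane. Each needs structural subunits, which carry the flavin, iron-sulfur and haem groups or surround them, and assembly factors, which help to build the complex and are absent from the finished enzyme. In mammals the hypoxia-inducible factor HIF-1 is known to shift energy metabolism from respiration towards glycolysis, and the 3 complexes are the entry and the middle of the respiratory chain. The genes described here are those of the array whose symbol starts with nduf (complex I), sdh (complex II) or uqcr (complex III), apart from ndufa4 and its copies, whose protein is placed in complex IV. Among the zebrafish symbols of the RefSeq gene table, 65 met this rule and 50 had a probe, out of 19547 genes or transcripts tested. The other 15 were not analysed here, among them ndufs3 of complex I and uqcr10 and uqcrfs1 of complex III. The genes were picked by symbol and not by a level or fold change, but with earlier results of these data known.

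The 50 genes were 32 subunits and 4 assembly factors of complex I, 5 subunits and 3 assembly factors of complex II, and 6 subunits of complex III. They had 79 probes, and the brightest probe stood for a gene that had several. Of the 50 genes, 48 lay well above background on all 9 arrays, and all 50 passed the filter on dim probes. sdhda, a membrane anchor of complex II, was well above background on 8 arrays. ndufa12, an accessory subunit of complex I, was so on 1 of 3 Hif-1α arrays, 3 of 3 Hif-3α arrays and 2 of 3 control arrays. ndufb8, an accessory subunit of complex I, had the strongest signal of the 50 and ndufa12 the weakest, which says nothing of their relative RNA amounts.

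Each sample was RNA from 60 pooled whole embryos of zebrafish (strain Tuebingen), collected 12 h after fertilization. The tested embryos had been injected with mRNA for Hif-1α (3 arrays) or for Hif-3α (3 arrays), 2 oxygen-regulated alpha subunits of HIF, and the controls with mRNA for green fluorescent protein, GFP (3 arrays). All 9 samples therefore come from injected embryos, and in pools of whole embryos fewer cells of a type and less RNA per cell cannot be told apart. The replicates came from independent microinjection experiments. A level is the log2 signal relative to the 75th percentile of its array, given for replicates 1, 2 and 3 in turn, and a difference of levels is given with its standard error (SE) from 3 arrays a group. A gene is called higher or lower where its p in the limma fit, adjusted by Benjamini and Hochberg's method across the 19547 genes or transcripts, was under 0.05.

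On each array 68.6% to 75.3% of the 43603 probes lay well above background, and the number of arrays limits the precision of every value below. The 75th percentile used for scaling also differed by group. It was 500, 611 and 562 on the Hif-1α arrays, 609, 785 and 690 on the Hif-3α arrays and 766, 822 and 795 on the control arrays. Every Hif-1α array thus lay below every control. Its part in the differences below was not tested beyond the other scalings. Hif-3α replicate 1 had 437 spots flagged as outliers, against 3 to 24 on each other array, and 3 of the 50 genes, ndufa6 and sdhaf3 among them, have no value on it. Of 4 probes of the injected Hif-3α gene, listed as hif1al, 3 were higher by 5.85 to 8.49 log2 units in Hif-3α than in control embryos, and no probe was matched to hif1aa or hif1ab. Of 31 markers of embryonic tissues, 30 had a probe, and 28 of these were well above background on all 9 arrays. The exceptions were sox17 (endoderm, 7 arrays) and mxtx2 (yolk layer, 6 arrays).

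The comparison of Hif-1α with control embryos asks how the genes of the 3 complexes respond to injected Hif-1α. Most of them were somewhat lower in the Hif-1α embryos. The median log2 difference of the 50 genes was -0.37, against -0.01 over all genes tested, and 44 of the 50 (88%) had a negative difference, against 51.0% of all genes. Individually 4 genes passed the test, all lower, which is 8% of the 50, against 3.77% of all genes called lower, and 0 of the 50 were higher, against 5.73% of all genes. Among them were ndufb2 and ndufs8a of complex I and sdhb of complex II.

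Samples of the same replicate number varied together, so the comparison was also fitted with the replicate number as a block. Then 14 of the 50 genes were lower (28%, against 10.9% of all genes) and 0 were higher. The 14 include these 4 and add ndufs1, ndufa2, ndufa13, ndufab1a, ndufaf1 and ndufaf5 of complex I, sdha of complex II, and uqcrq, uqcrc1 and uqcrc2a of complex III. The median of the 50 differences was -0.35 for replicate 1, -0.16 for replicate 2 and -0.51 for replicate 3. In all 3 replicates 38 genes were lower (76%, against 29.5% of all genes), and 1 gene, ndufaf2, was higher. In 27 genes every Hif-1α array lay below every control array (54%, against 16.8% of all genes), and in 0 genes above (17.2% of all genes). The 27 include the dim gene ndufa12, which the filter kept only through its Hif-3α arrays. The median SE was 0.15 for the 50 genes and 0.19 over all genes, so these shares compare genes of unlike precision. The part of this in the shares was not tested. The calls rest on few arrays: none of the 50 passed once control replicate 3 was left out, nor without replicate 1 or replicate 3 of Hif-1α, without control replicate 1 only ndufa12 did, without Hif-1α replicate 2 only ndufb2 did, and without control replicate 2 there were 8. Without Hif-3α replicate 2 or replicate 3, which enter the estimate of the spread, 2 passed, ndufb2 and ndufs8a. The calls over all genes moved in the same way, and no loss particular to the 50 genes can be read from these counts: 737 genes were lower with all arrays, 83 without control replicate 3, 123 without control replicate 1, and 98, 309 and 122 without replicates 1, 2 and 3 of Hif-1α, while without control replicate 2 there were 863. The median of the 50 genes stayed between -0.44 and -0.27 whichever array was left out.

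**Figure D1:**
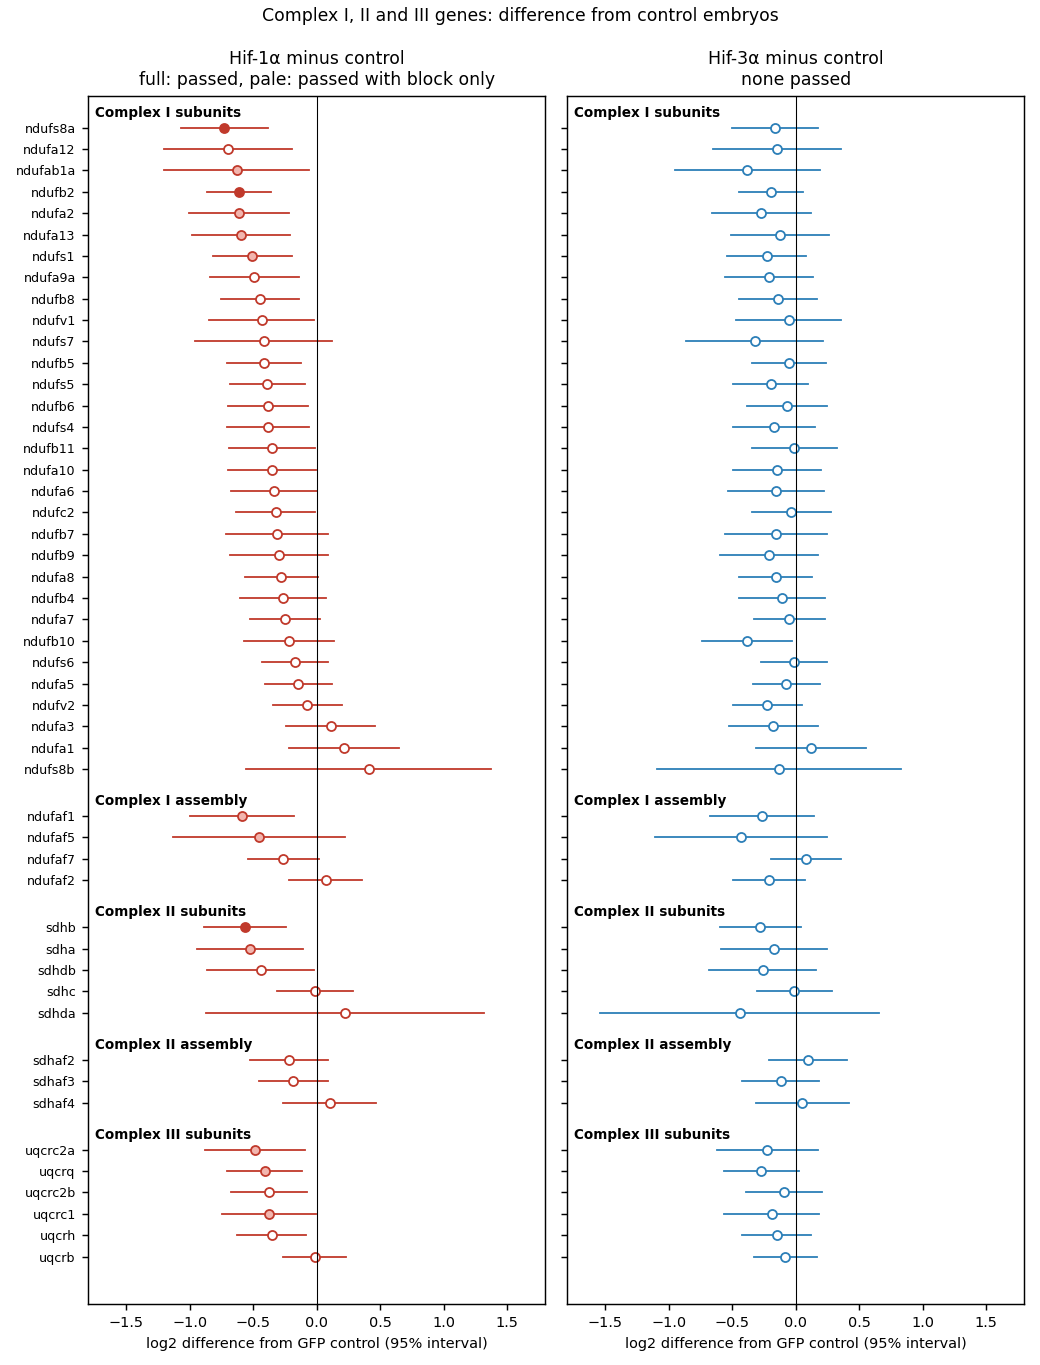
Log2 difference from the GFP controls of 49 of the 50 genes in Hif-1α embryos (left) and Hif-3α embryos (right), as points with 95% intervals from the fit (n = 3 arrays a group), ordered within each complex and role by the Hif-1α difference. Full points mark the 3 genes shown that passed without the replicate block and pale points the 10 that passed only with it; 43 points lie left of 0 with Hif-1α and 45 with Hif-3α.

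The arrays were also separated as a whole. Relative to the mean of the controls, the median of the 50 genes stood at -0.35, -0.31 and -0.42 in Hif-1α, at -0.12, -0.18 and -0.13 in Hif-3α and at -0.02, -0.12 and 0.14 in control samples. Every Hif-1α array thus lay below every Hif-3α and control array, while the Hif-3α arrays lay at or just below control replicate 2. The median over all genes tested lay between -0.03 and 0.06 on the 9 arrays.

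**Figure D2:**
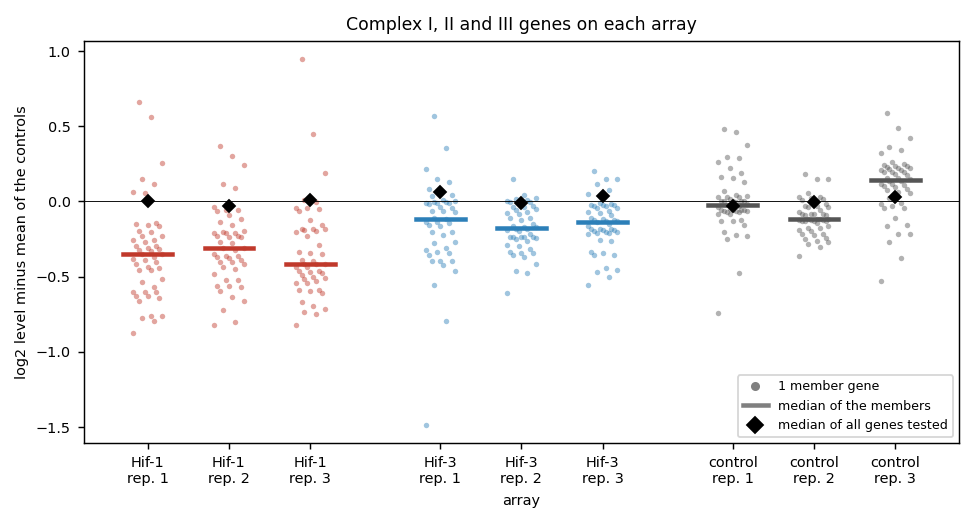
Level of each of the 50 genes on each array minus its mean over the controls (log2, vertical axis), for the Hif-1α, Hif-3α and control arrays. Points are genes, bars the median of the 50 genes and diamonds the median of all genes tested; the bars of the Hif-1α arrays lie at -0.35, -0.31 and -0.42 and those of the controls at -0.02, -0.12 and 0.14.

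Complex I has a peripheral arm, which takes electrons from NADH and hands them to ubiquinone, and a membrane arm, which pumps protons. The roles given here for single genes are known from mammals. Of the 32 measured subunit genes 3 were lower with Hif-1α (7 with the block), the median difference was -0.37, and 29 had a negative difference. Over all genes 3.77% were called lower, and 10.9% with the block. The 7 measured genes of core subunits, which hold the flavin and the iron-sulfur clusters, had a median of -0.44, with 2 lower (3 with the block). Both copies of ndufs8 count among these 7, and ndufs8b gave a weak signal. The 25 genes of accessory subunits had a median of -0.35, with 1 lower (4 with the block).

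The Q module is the part of the peripheral arm where ubiquinone is reduced. ndufs8a, an iron-sulfur subunit, stood at 1.24, 1.28 and 1.31 in Hif-1α embryos, against 2.08, 1.70 and 2.24 in controls. It fell by 39.6% (log2 difference -0.73 ± 0.15, limma adjusted p = 0.025). The lowest control array was control replicate 2, which still lay above all 3 Hif-1α arrays. The 6 measured genes of the Q module had a median difference of -0.46. ndufs7, an iron-sulfur subunit, differed by -0.42 ± 0.24 (adjusted p = 0.28), with -0.40, -0.45 and -0.68 in Hif-1α embryos and 0.29, 0.06 and -0.62 in controls, where replicate 3 lay as low as the Hif-1α arrays.

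The N module takes up electrons from NADH. Its 9 measured genes all had a negative difference, with a median of -0.38. Without the block 0 passed and with it 2 did, where 3.77% and 10.9% of all genes were called lower. ndufs1, an iron-sulfur subunit, stood at 3.53, 3.76 and 3.59 in Hif-1α embryos and 4.08, 4.01 and 4.32 in controls, with no overlap (-0.51 ± 0.14, adjusted p = 0.0538, 0.0298 with the block). ndufa2, an accessory subunit, stood at 3.65, 3.60 and 3.42 in Hif-1α embryos and 4.11, 3.88 and 4.51 in controls (-0.61 ± 0.17, adjusted p = 0.0609, 0.042 with the block). Its other probe differed by -0.55 ± 0.14 (adjusted p = 0.0465 over all probes). ndufv1, which binds NADH, differed by -0.44 ± 0.18 and did not pass. ndufv2, which carries an iron-sulfur cluster, differed by -0.08 ± 0.12, with overlapping groups. ndufa12, the dim gene, differed by -0.70 ± 0.22 (adjusted p = 0.082), and with another background correction (normexp on the median background of each array, an alternative added after seeing the data) its difference was 0.19.

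The membrane arm, or P module, had 16 measured genes with a median of -0.34, and 14 of them had a negative difference. ndufb2, an accessory subunit of the far end of this arm, stood at 2.66, 2.70 and 2.59 in Hif-1α embryos and 3.26, 3.14 and 3.38 in controls. It fell by 34.6% (-0.61 ± 0.11, adjusted p = 0.0177). Its 3 Hif-1α arrays (SD 0.05) lay close together and all below the lowest control (SD of the controls 0.12). ndufa13, an accessory subunit also known as GRIM-19, stood at 3.56, 3.56 and 3.57 in Hif-1α embryos and 4.32, 3.80 and 4.36 in controls (-0.59 ± 0.17, adjusted p = 0.0632, 0.0307 with the block). ndufab1a, the mitochondrial acyl carrier protein, is also a subunit, which sits in 2 places of complex I and is not counted among these 16 genes. It stood at 1.00, 0.43 and 0.43 in Hif-1α embryos and 1.74, 1.04 and 0.98 in controls. The groups overlapped, since Hif-1α replicate 1 reached the level of the lowest control, but the difference within replicates was -0.74, -0.61 and -0.55 (adjusted p = 0.142, 0.0126 with the block). ndufa1 and ndufa3, small accessory subunits, were the 2 genes of this arm without a negative difference, at 0.21 ± 0.19 and 0.11 ± 0.15, and did not pass. The 2 probes of ndufa1 had opposite signs, and the other one differed by -0.12.

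**Figure D3:**
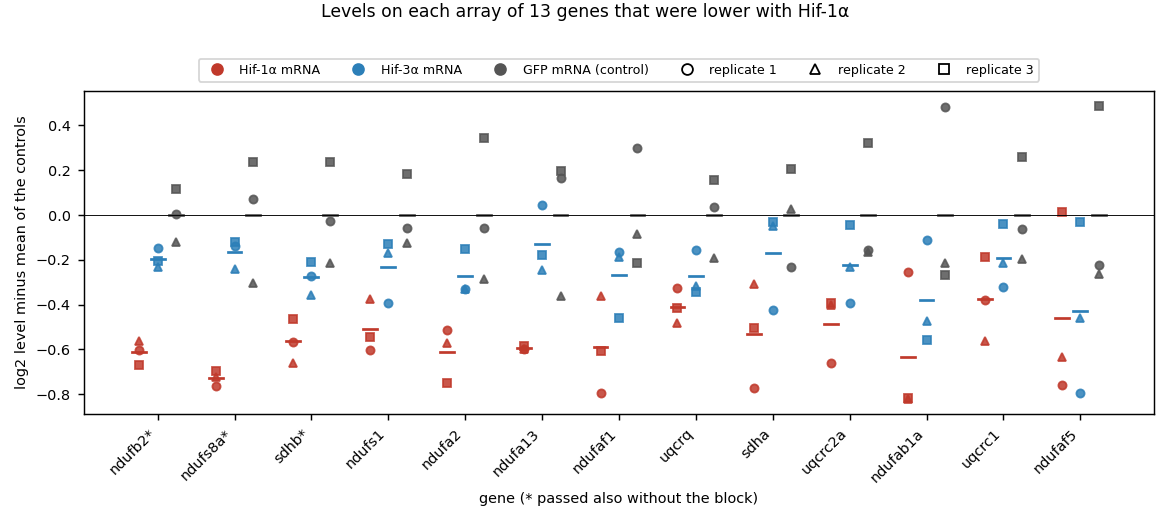
Level on each array minus the mean of the controls (log2, vertical axis) of 13 of the 14 genes that were lower with Hif-1α with the replicate block, in order of their p without it; a star marks the 3 of them that passed also without it. Symbols mark replicates 1, 2 and 3, bars are means of the Hif-1α, Hif-3α and control arrays. The Hif-1α points of ndufb2, ndufs8a and sdhb all lie below their control points.

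Of the 4 assembly factors of complex I measured, 0 passed without the block and 2 were lower with it. The shares of all genes called lower were 3.77% and 10.9%. ndufaf1, which acts in building the membrane arm, stood at -2.25, -1.81 and -2.06 in Hif-1α embryos and -1.16, -1.54 and -1.67 in controls (-0.59 ± 0.18, adjusted p = 0.0758, 0.0497 with the block). ndufaf5, which modifies the subunit NDUFS7, stood at 0.10, 0.22 and 0.87 in Hif-1α embryos and 0.63, 0.59 and 1.34 in controls. Hif-1α replicate 3 lay above 2 of the 3 controls, while the differences within replicates were -0.54, -0.37 and -0.47 (adjusted p = 0.343, 0.0301 with the block). ndufaf7, which modifies a core subunit, differed by -0.26 ± 0.12 and ndufaf2, which acts late in assembly, by 0.07 ± 0.12, neither past the threshold. The sign of ndufaf2 turned to -0.04 when each array was centred on its median.

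Complex II oxidises succinate to fumarate and is also an enzyme of the citrate cycle. Of its 5 subunit genes 1 was lower with Hif-1α (2 with the block), against 3.77% of all genes (10.9% with the block). The median difference of the 5 was -0.44. sdhb, the iron-sulfur subunit, stood at 2.03, 1.93 and 2.13 in Hif-1α embryos and 2.57, 2.38 and 2.83 in controls. It fell by 32.4% (-0.56 ± 0.14, adjusted p = 0.0433), with no overlap between the groups. The other probe of sdhb differed by -0.67 ± 0.22 and did not pass (limma adjusted p = 0.0894 over all probes). sdha, the flavin subunit where succinate is oxidised, stood at 1.66, 2.13 and 1.93 in Hif-1α embryos and 2.21, 2.46 and 2.65 in controls (-0.53 ± 0.18, adjusted p = 0.103, 0.0193 with the block). sdhc, a membrane anchor, differed by -0.01 ± 0.13 and did not follow the catalytic subunits: it stood at 3.92, 4.31 and 3.95 in Hif-1α embryos and 4.04, 4.09 and 4.09 in controls.

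None of the 3 assembly factors of complex II passed with or without the block. sdhaf2, which helps to attach the flavin to SDHA, differed by -0.22 ± 0.13. sdhaf3, which acts on SDHB, differed by -0.19 ± 0.12. sdhaf4, which binds SDHA before it joins SDHB, differed by 0.10 ± 0.16. Over both complexes the 7 assembly factors had a median of -0.22 and the 43 subunits of all 3 complexes a median of -0.38, and the difference between these groups of genes was not tested.

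Complex III hands electrons from ubiquinol to cytochrome c. Its 6 measured subunit genes all had a negative difference with Hif-1α, with a median of -0.38. Without the block 0 passed and with it 3 did, where 3.77% and 10.9% of all genes were called lower. uqcrq, a small subunit of the membrane part, stood at 4.17, 4.01 and 4.08 in Hif-1α embryos and 4.53, 4.30 and 4.65 in controls, without overlap (-0.41 ± 0.13, adjusted p = 0.0835, 0.0403 with the block). uqcrc1, a core protein on the matrix side, stood at 2.40, 2.21 and 2.59 in Hif-1α embryos and 2.71, 2.58 and 3.04 in controls (-0.38 ± 0.16, adjusted p = 0.171, 0.0445 with the block). Hif-1α replicate 3 lay just above control replicate 2. A further probe of uqcrc1 differed by -0.67 ± 0.16 (adjusted p = 0.0395 over all probes). uqcrh, the hinge protein that helps cytochrome c to dock, differed by -0.36 ± 0.12 with no overlap and did not pass. uqcrb, a subunit near the ubiquinone site, differed by -0.02 ± 0.11, with 5.41, 5.29 and 5.31 in Hif-1α embryos and 5.29, 5.31 and 5.45 in controls.

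Zebrafish have duplicate copies of some of these genes, and 3 pairs were measured in full. The copies of uqcrc2, the other core protein of complex III, had similar differences with Hif-1α. uqcrc2a stood at 2.66, 2.92 and 2.93 in Hif-1α embryos and 3.17, 3.16 and 3.64 in controls (-0.48 ± 0.17, adjusted p = 0.112, 0.0312 with the block), and uqcrc2b at 3.64, 3.46 and 3.49 in Hif-1α embryos and 3.92, 3.77 and 4.05 in controls (-0.38 ± 0.13, adjusted p = 0.105, 0.0518 with the block). The level of uqcrc2a minus that of uqcrc2b was -0.69 ± 0.25 in Hif-1α embryos and -0.59 ± 0.17 in controls (SD, n = 3 each, exact permutation p = 0.7).

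The copies of ndufs8 and of sdhd had differences of opposite sign. ndufs8b stood at -4.08, -5.13 and -3.80 in Hif-1α embryos and -4.28, -4.83 and -5.12 in controls, a difference of 0.41 ± 0.42 with an interval of -0.56 to 1.37, beside the lower level of ndufs8a. The level of ndufs8a minus that of ndufs8b was 5.61 ± 0.70 in Hif-1α embryos and 6.75 ± 0.53 in controls (SD, n = 3 each, exact two-sided permutation p = 0.2), with 5.33, 6.41 and 5.11 in Hif-1α embryos against 6.36, 6.53 and 7.36 in controls, lower with Hif-1α in all 3 replicates. This test does not use the replicate numbers, and the smallest p that 3 against 3 arrays allow is 0.1, so that it could not pass 0.05 for any of the 3 pairs of copies. sdhda stood at -4.05, -3.52 and -3.44 in Hif-1α embryos and -4.63, -3.74 and -3.30 in controls (0.22 ± 0.48), and sdhdb at 1.44, 1.57 and 1.58 in Hif-1α embryos and 1.85, 1.73 and 2.34 in controls (-0.44 ± 0.18, adjusted p = 0.159). The 3 Hif-1α arrays of sdhdb lay below all controls, but its other probe differed by 0.04. The level of sdhda minus that of sdhdb was -5.21 ± 0.25 in Hif-1α embryos and -5.87 ± 0.54 in controls (SD, n = 3 each, exact permutation p = 0.2), and was higher with Hif-1α in all 3 replicates. ndufs8b and sdhda gave weak signals, with an SD among the Hif-1α, Hif-3α and control arrays of 0.70, 0.62 and 0.43 for ndufs8b and 0.33, 0.91 and 0.68 for sdhda.

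**Figure D4:**
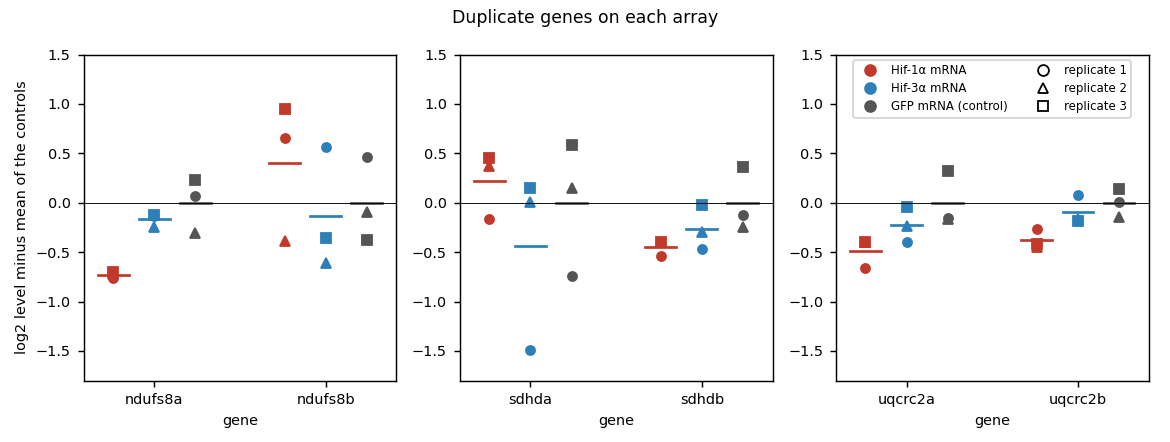
Level on each array minus the mean of the controls (log2, vertical axis) for the duplicate genes ndufs8a and ndufs8b, sdhda and sdhdb, and uqcrc2a and uqcrc2b. Colours mark the Hif-1α, Hif-3α and control embryos, symbols replicates 1, 2 and 3, and bars means; the points of ndufs8b and sdhda spread widely within groups, and the Hif-1α means lie at -0.73 for ndufs8a and 0.41 for ndufs8b.

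The comparison of Hif-3α with control embryos asks the same question for Hif-3α and shares its 3 control arrays with the comparison above. None of the 50 genes passed, with or without the block, in a comparison where limma called 1 gene of all tested (0.00512%) and 1191 had an unadjusted p under 0.05. The differences were small and mostly negative: 46 of the 50 genes (92%) lay below 0, against 46.0% of all genes, with a median of -0.16, against 0.02 over all genes. By replicate the median was -0.12, -0.06 and -0.29. In 6 genes every Hif-3α array lay below every control (12%, against 4.32% of all genes), in 0 genes above (7.03% of all genes), and 20 genes were lower in all 3 replicates (40%, against 14.6%). Without control replicate 3, the control array on which the 50 genes stood highest, 39 genes lay below 0 and the median was -0.08.

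Of the 50 genes, 2 had an unadjusted p under 0.05 with Hif-3α. Among these, ndufb10, an accessory subunit of the membrane arm, stood at 2.62, 2.82 and 2.91 in Hif-3α embryos and 3.04, 3.08 and 3.39 in controls (-0.38 ± 0.16, limma adjusted p = 0.799), with no overlap between the groups. The genes with the next smallest p after these 2 were uqcrq, at -0.27 ± 0.13, sdhb, at -0.28 ± 0.14, and ndufv2, at -0.22 ± 0.12, none past the threshold. By complex, the median was -0.16 for the subunits of complex I, -0.26 for those of complex II and -0.17 for those of complex III. The 4 genes with a positive difference were ndufa1 (0.12), sdhaf2 (0.09), ndufaf7 (0.08) and sdhaf4 (0.05).

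For ndufb2, ndufs8a and sdhb, which fell with Hif-1α, every Hif-3α array lay above every Hif-1α array. These genes were picked for low Hif-1α levels against the same controls, so this position is no independent result. ndufb2 stood at 3.11, 3.03 and 3.05 in Hif-3α embryos, below all controls and above all Hif-1α arrays (-0.20 ± 0.11 against control). ndufs8a stood at 1.87, 1.77 and 1.88, all above control replicate 2 at 1.70, and overlapped the controls (-0.17 ± 0.15). sdhb stood at 2.32, 2.24 and 2.38, where the highest array reached control replicate 2 (-0.28 ± 0.14).

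Set directly against each other, Hif-3α and Hif-1α embryos did not differ in any of the 50 genes at the threshold. Over all genes limma called 0.189% higher and 0.737% lower in Hif-3α embryos. Of the 50 genes, 10 had an unadjusted p under 0.05, all higher in Hif-3α embryos. Over all 19547 genes 3719 had such a p, a similar share when both directions are counted. How many of these 3719 were higher was not counted, so the direction cannot be compared. With the block still 0 of the 50 passed, against 1.9% of all genes called higher and 2.65% lower. The median difference was 0.20, against 0.03 over all genes, and 41 genes lay above 0. In 20 genes every Hif-3α array lay above every Hif-1α array (40%, against 15.5% of all genes) and in 0 genes below (11.3%). The dim gene ndufa12 is among these 20 and among the 10 above. The filter kept it only through its Hif-3α arrays, so its higher level there is no support. Its difference was 0.55 ± 0.22, and -0.08 under another scaling. Only 4 genes were lower with Hif-3α than with Hif-1α in all 3 replicates (8%, against 26.1%). The smallest p values belonged to ndufb2 (0.42 ± 0.11, adjusted p = 0.113, 0.068 with the block) and ndufs8a (0.56 ± 0.15, adjusted p = 0.113, 0.0571 with the block), followed by ndufaf7 (0.34 ± 0.12), ndufb5, an accessory subunit of the membrane arm (0.36 ± 0.13), and ndufa13 (0.47 ± 0.17). The 95% interval of the ndufb2 difference was 0.17 to 0.67. Responses to Hif-1α and Hif-3α thus were not shown to differ for a single gene, and an equal response was not shown either.

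**Figure D5:**
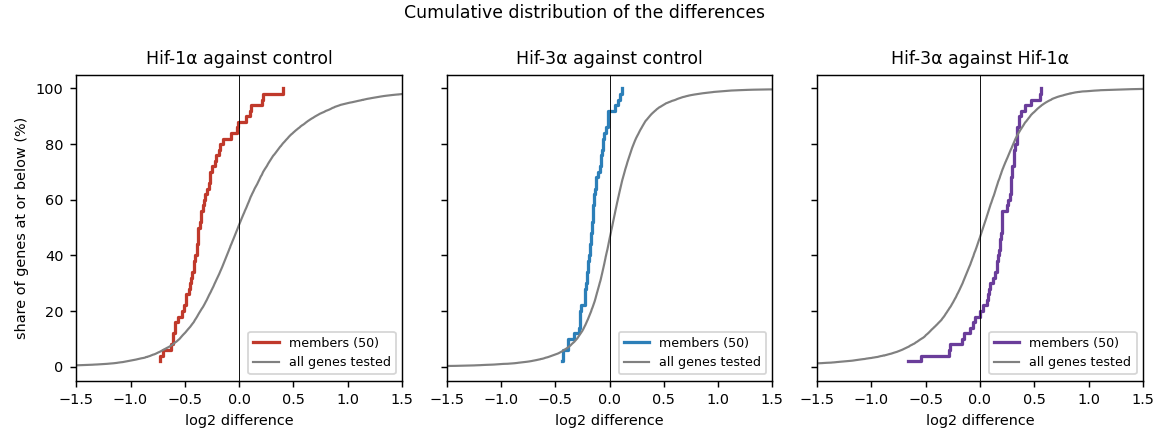
Share of genes (%, vertical axis) whose log2 difference is at or below the value on the horizontal axis, for the 50 genes (coloured steps) and all genes tested (grey), with 1 panel for each comparison. From left to right, the medians of the 50 genes lie at -0.37, -0.16 and 0.20, and those of all genes at -0.01, 0.02 and 0.03.

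Other genes of the same pathways were counted from lists written with earlier results of these data known. Over all genes 3.77% were called lower with Hif-1α, and 10.9% with the block. The lists are short, and their counts were not tested against these shares. Of 28 further genes of the 3 complexes, 12 were tested, all of them nuclear genes such as those of assembly factors and the electron carrier cytochrome c, and the mitochondrially encoded subunits of the list were not analysed here. Of the 12, 11 had a negative difference with Hif-1α, with a median of -0.41, and 1 was lower (4 with the block). That 1 was foxred1, an assembly factor of complex I (-1.48 ± 0.29, adjusted p = 0.022), and the block added cycsb, a cytochrome c gene (-0.89), timmdc1, an assembly factor of complex I (-0.55), and lyrm7, which helps to insert the iron-sulfur protein of complex III (-0.48). All 12 tested genes of the citrate cycle, of 15 listed, had a negative difference, with a median of -0.43, and 2 were lower (4 with the block), among them sucla2, a subunit of succinyl-CoA synthetase (-0.75 ± 0.16, adjusted p = 0.0287). Of 10 tested genes of ubiquinone synthesis, of 12 listed, 1 was lower, pdss2, which makes the side chain (-1.04 ± 0.26, adjusted p = 0.0421). Their median was -0.29, and 8 of the 10 had a negative difference. Of 5 tested genes of pyruvate dehydrogenase and its kinases, of 11 listed, 0 passed without the block and 2 were lower with it. Their median was -0.34, and 3 of the 5 had a negative difference. Of 8 tested regulators of mitochondrial biogenesis, of 12 listed, 0 passed without the block and 1, tfb2m, was lower with it. Their median was -0.03, and 5 of the 8 had a negative difference. Over all genes 51.0% had a negative difference with Hif-1α. With Hif-3α none of these genes passed against control, and the medians of the 5 lists lay between -0.15 and 0.04.

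In the same Hif-1α embryos igfbp1a and vhl, known to respond to HIF, were higher by 3.99 ± 0.56 (adjusted p = 0.00842) and 1.78 ± 0.22 (adjusted p = 0.00531). In Hif-3α against control embryos neither of these 2 passed, 1 had a negative difference and their median was 0.17. Both were called lower in Hif-3α than in Hif-1α embryos, with a median of -2.72. Some tissue markers moved with Hif-1α as well. Beside their counts, 5.73% of all genes were called higher with Hif-1α and 3.77% lower. With the block these shares were 11.7% and 10.9%. Of 4 markers of the yolk layer 3 were higher with Hif-1α (mxtx1, mxtx2 and gata6) and 1 had a negative difference. The mean level of the 4 was 0.05, -0.21 and -0.26 with Hif-1α, -0.80, -1.0 and -1.10 with Hif-3α, and -1.57, -1.06 and -1.66 with GFP. Of 4 maternal and germ line markers 2 were higher (nanos3 and dazl) and 1 had a negative difference. The mean level of these 4 was -1.42, -1.51 and -1.54 with Hif-1α, -1.65, -2.18 and -1.98 with Hif-3α, and -2.26, -2.05 and -2.24 with GFP. Of 3 epidermis markers 1 was higher (krt8) and 1 had a negative difference. None of the 3 notochord, 4 neural, 3 hatching gland and 2 endoderm markers passed without the block. With it, krt4 (epidermis), ctslb (hatching gland) and ddx4 (germ line) were higher as well, while 1 of the 3 hatching gland markers had a negative difference. The 5 somite and muscle markers had a median difference of -0.40, 0 of them past the threshold and 2 lower with the block (myod1 and myl10), at a mean level of 2.74, 3.04 and 3.1 with Hif-1α, 3.26, 3.25 and 3.6 with Hif-3α, and 3.30, 3.34 and 3.62 with GFP. Of the 2 tested blood and vessel markers, of 3 listed, 0 passed without the block and 1, gata1a, was lower with it. The part of these shifts in tissue markers in the lower levels of complex I, II and III genes was not tested.

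The arrays were scanned on 4 days, given by the file headers, and 2 of the Hif-1α arrays were scanned on a day of their own. These 2, replicates 1 and 3, also shared a slide that held no array of another group. Only in replicate 2 were the Hif-1α and control arrays scanned on the same day. The median Hif-1α difference of the 50 genes was smallest in that replicate, at -0.16, against -0.35 in replicate 1 and -0.51 in replicate 3. With scan day as a block the median Hif-1α difference of the 50 genes was -0.28 and 44 lay below 0, at a median SE of 0.23. This difference comes from the 1 day that held arrays of all 3 groups (1 Hif-1α, 2 Hif-3α and 2 control arrays), since each other day held 1 group, and the fit within that day gave the same median. It rests on 1 Hif-1α array, whose spread was assumed to be that of the other groups. With the block 0 of the 50 genes passed, where limma called 0 genes of all tested lower and 4 higher, and within the day 0 passed, where it called 0 genes in either direction, so that these counts say nothing of the 50 genes. The part of the scan day in the calls was not tested beyond these values. With the normexp correction on each spot's own background the median of the 50 genes was -0.21, against -0.20 over all genes, and 0 passed. That correction left the lower quartile of the signal at 714 on control replicate 3 and 534 on Hif-3α replicate 1, against 68.5 to 76.4 on the other arrays; with the median background of each array the median of the 50 genes was -0.40, against 0.08 over all genes, and 12 passed.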

How the data were processed

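RNA of 9 pools of zebrafish embryos was labelled with Cy3 and hybridised to 1-colour arrays. The labels name a mouse array, but per the file headers the design is the zebrafish grid 026437 with 45220 spots. Per the file headers the deposited signals and local backgrounds are intensities from Feature Extraction 10.7.3.1, background-subtracted and detrended in the processed signal; the flags are deposited as other values, 0 or 1. Per the labels the authors normalized with GeneSpring 11.0, and their deposited matrix is in log2 units.

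Probes were named through RefSeq accessions in the gene table of assembly GRCz12tu, used for names alone: 25069 of 43603 received a symbol. Processed signals, without control and outlier spots, were scaled to the 75th percentile of each array and taken to log2. Models with a mean per group over the 9 arrays were fitted in limma 3.58.1 (R 4.3.3; two-sided, empirical Bayes). A probe was kept (31114 were) if some group had it well above background throughout, and the brightest probe stood for its gene. The fit was tested on simulated data with independent noise on each array. That setting lacks the shared deviations of samples of the same number, so it does not bear on the calls reported here. The replicate block was applied since samples of the same number deviated together: the correlations were 0.29, 0.11 and 0.47 between Hif-1α and control replicates 1, 2 and 3, 0.36, 0.12 and 0.58 between Hif-3α and control, and 0.54, 0.47 and 0.49 between Hif-3α and Hif-1α. Between arrays of different number they were -0.49 to 0.07. Control replicate 2 paired weakly, since it reached 0.07 with Hif-1α replicate 1 and 0.05 with Hif-3α replicate 1. Replicate 2 of Hif-1α and of Hif-3α also shared a slide and a scan day, which cannot be told apart from the number. The labels do not say that a number marks 1 experiment.

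Fully described genes were up to 12 that passed with the smallest p (the 5 with the smallest p where fewer than 3 passed), the core subunits of complex I, all genes of complexes II and III, assembly factors, duplicates, and genes with disagreeing probes; ndufb10, ndufb5, ndufa13, ndufab1a and others that passed with the block were added. Complex I modules follow the mammalian structure. The genes and lists were chosen with earlier results of these data known. Alternatives were other background corrections and scalings, the deposited matrix, filters, probe averaging, scan day, slide, the replicate block and leaving out each array. Some genes are included in the counts but not reported here by name, and no sequences were analysed.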

Additional observations from a re-analysis of the deposited data

How the results depend on the processing

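For Hif-1α against control, 4 of the 50 genes were lower, where 3.77% of all genes were. Brackets give the share of all genes called lower under each alternative. The count was 14 with the replicate block (10.9%), 0 with normexp background correction (0%) and 11 with arrays centred on their median (6.38%). It was 1 without a filter on dim probes (0.616%) and 7 with the mean of a gene's probes (3.09%). With only the 6 arrays compared it was 0 (0.772%), and with scan day as a block 0 (0%). Among alternatives added after seeing the data it was 12 with normexp on each array's median background (5.29%) and 3 with slide as a random block (2.34%). With the replicate block, it was 0 without replicate 1 (0.593%), 9 without replicate 2 (9.16%) and 0 without replicate 3 (0%). It was 3 with quantile normalization (3.68%), 3 with the deposited matrix (3.64%) and 5 with probes well above background on all 9 arrays (4.47%). When single arrays were left out it was 0 to 8, where 83 to 863 of all genes were lower. The calls over all genes moved too, so these counts alone show no loss or gain particular to the 50 genes. The median of the 50 differences, -0.37, was -0.30 with quantile normalization and -0.30 with the deposited matrix, each against -0.03 over all genes. With arrays centred on their median it was -0.47, against -0.12. It ranged from -0.44 to -0.27 when single arrays were left out, and none of the 50 genes was called higher under any of the alternatives run. Centring on the median moved the median of all genes to -0.12 and the calls over all genes to 1247 lower and 843 higher, against 737 lower and 1120 higher.

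For Hif-3α against control 0 genes passed under all alternatives run, including 0 with single arrays left out, with a median of -0.22 to -0.08. For Hif-3α against Hif-1α 0 passed under all of them, including 0 with single arrays left out; the median, 0.20, was 0.14 with normexp (against 0.21 over all genes, so that the 50 genes then lay below all genes and not above), 0.28 with arrays centred on their median, 0.12 with the deposited matrix, 0.14 with scan day as a block, 0.14 within scan day 3, and 0.18 to 0.24 with single arrays left out. The replicate block changed no call of the 50 genes in the comparisons with Hif-3α. Those with an unadjusted p under 0.05 were 5 with it and 2 without it against control, and 14 with it and 10 without it against Hif-1α. Over all 19547 genes they were 2469 with it and 1191 without it against control, and 5721 and 3719 against Hif-1α. The rise with the block was thus not particular to the 50 genes. Across 5 scalings the sign of the Hif-1α difference held for 45 of the 50 genes and turned for ndufa12, ndufaf2, sdhaf4, sdhc and uqcrb, of which only ndufa12 passed under any alternative (without control replicate 1). These 5 include normexp on each array's median background, added after seeing the data, and leave out normexp on each spot's own background. Under the latter 42 of the 50 differences were negative, where the median over all genes was -0.20. ndufb2 was lower under 26 of 26 settings and passed in 16, ndufs8a passed in 14 and sdhb in 8. The cause of these changes was not tested. Signals near background limit ndufa12, sdhda and ndufs8b.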
